A study of Mus musculus with 8 samples.

Results

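The complement genes of the mouse lung were examined in animals given lipopolysaccharide (LPS) with or without tangeretin. The set holds 30 genes of 24584 in the deposited tables and was chosen by name, as components, regulators and receptors of the complement cascade. All 30 were found in the tables. A total of 29 had enough reads for a test, among 15706 tested genes. The exception was Vsig4, a complement receptor of resident macrophages, which had 0 counts in 7 lungs and 1 count in the other.

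Complement is a protein cascade of blood and tissue that tags microbes and damaged cells, attracts leukocytes and opens pores in membranes. The classical pathway starts when C1q binds antibody or damaged surfaces and the C1r and C1s proteases cleave C4 and C2. The lectin pathway starts with ficolins and MASP proteases, and the alternative pathway amplifies the signal through factor B and factor D. All routes meet at C3, whose cleavage leads to C5 and to the membrane attack complex. Host cells carry regulators that stop the cascade, and leukocytes carry receptors for the released fragments. Much of the circulating protein is made by the liver, while lung epithelium, fibroblasts, endothelium and macrophages also make complement proteins.

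Lungs came from male ICR mice of 6 to 8 weeks, labelled as wild type, in 2 groups of 4. The LPS group received LPS of E. coli O111:B4 at 5 mg/kg by intraperitoneal injection. The LPS + Tan group received tangeretin, a flavone of citrus peel, at 50 mg/kg by the same route 30 min before the same LPS. Lungs were taken 12 h after LPS. All 8 mice therefore received LPS, and no group without LPS and no group given tangeretin alone was analysed here. Whole lung RNA was sequenced, so a lower value can mean fewer cells of a type or less RNA per cell, and these cannot be told apart. The p-values measure the spread between these mice.

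The gene counts of a library summed to 38895654 to 39931970. Values are given as CPM, the counts scaled to a common library size by the sample total and its TMM factor, a correction for differences in RNA composition. Levels of different genes are compared only as FPKM, which also divides by gene length. A count of 3, taken as the floor of detection, was 0.0729 to 0.0784 CPM. Lung markers were present at high levels. The 6 markers of alveolar type 2 epithelium summed to 5767 to 9461 CPM in LPS and to 6096 to 10340 CPM in LPS + Tan. The 6 endothelial markers summed to 3104 to 3824 and to 3630 to 4006 CPM. Albumin (Alb), the defining liver marker, had 5 to 26 counts per lung. The median Pearson correlation of a sample with the others lay between 0.985 and 0.990, and no library repeated another.

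Promoter windows are shown for some of the genes described below, C3, C6 and C7 of the effector arm and the C1ra and C1s1 proteases. Each window runs 5′ to 3′ on the strand of the gene, from 250 bases before to 50 bases after the annotated start, and comes from RefSeq on GRCm38.p6. The reference is not of the ICR strain. Windows were found for 21 of the 30 genes. Cfb and C1qa had no window, and that of Cd46 is not shown. Capitals mark matches to any of 4 short motifs searched on both strands.
C3, chr17:57228087-57228386, minus strand: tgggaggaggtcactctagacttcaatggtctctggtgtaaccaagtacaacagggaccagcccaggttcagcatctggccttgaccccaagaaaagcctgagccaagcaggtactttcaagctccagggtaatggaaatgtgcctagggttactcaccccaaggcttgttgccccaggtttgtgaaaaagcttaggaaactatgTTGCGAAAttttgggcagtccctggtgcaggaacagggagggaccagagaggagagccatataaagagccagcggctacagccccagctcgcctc
C6, chr15:4726960-4727259, plus strand: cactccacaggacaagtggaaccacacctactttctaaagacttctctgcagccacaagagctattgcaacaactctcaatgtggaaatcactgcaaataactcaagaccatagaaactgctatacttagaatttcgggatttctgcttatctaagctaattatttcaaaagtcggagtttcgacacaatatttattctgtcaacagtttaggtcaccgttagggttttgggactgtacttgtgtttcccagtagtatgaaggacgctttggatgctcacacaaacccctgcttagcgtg
C7, chr15:5063724-5064023, minus strand: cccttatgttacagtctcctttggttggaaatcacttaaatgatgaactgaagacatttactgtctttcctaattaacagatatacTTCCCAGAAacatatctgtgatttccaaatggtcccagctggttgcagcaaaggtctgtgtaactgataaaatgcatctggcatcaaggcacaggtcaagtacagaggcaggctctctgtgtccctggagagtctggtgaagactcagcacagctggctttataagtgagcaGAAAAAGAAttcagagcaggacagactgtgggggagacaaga
C1ra, chr6:124512371-124512670, plus strand: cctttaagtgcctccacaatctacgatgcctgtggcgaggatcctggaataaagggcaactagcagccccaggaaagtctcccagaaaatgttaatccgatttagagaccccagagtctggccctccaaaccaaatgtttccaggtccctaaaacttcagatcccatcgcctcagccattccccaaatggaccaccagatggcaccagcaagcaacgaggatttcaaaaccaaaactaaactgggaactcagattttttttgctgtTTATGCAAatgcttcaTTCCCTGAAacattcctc
C1s1, chr6:124542310-124542609, minus strand: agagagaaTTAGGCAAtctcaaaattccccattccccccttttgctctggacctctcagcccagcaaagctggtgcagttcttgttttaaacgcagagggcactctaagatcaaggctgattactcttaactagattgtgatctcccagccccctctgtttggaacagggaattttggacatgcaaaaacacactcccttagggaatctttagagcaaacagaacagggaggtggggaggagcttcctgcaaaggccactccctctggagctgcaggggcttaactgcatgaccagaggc

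The motifs were C/EBP (TTGCNNAA), kappaB (GGNNTTTCC), STAT (TTCNNNGAA) and IRF (GAAANNGAA), which name factors of the acute-phase and innate response. A match is only a run of letters. The C3 window held 1 C/EBP match, at position -45 from the start. The C7 window held 1 STAT match at position -164 and 1 IRF match at position 8 after the start. The C1ra window held 1 C/EBP match at position 16 and 1 STAT match at position 32, both after the start. The C1s1 window shown held 1 C/EBP match at position -242, while a second listed start, with an overlapping window, held 0. The C6 window held 0 matches. Among the 21 genes with a window, 4 held the C/EBP motif, 1 the kappaB motif, 3 the STAT motif and 5 the IRF motif. Among 32851 windows of 300 bases these motifs were found in 10.8%, 5.82%, 8.3% and 8.56%.

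The complement genes spanned a wide range of levels in the LPS-treated lung. Serping1, which encodes the C1 inhibitor, was highest with a mean of 671 FPKM over the 8 lungs, followed by C3 with 514, Cfb with 224, Cd93 with 189, C1s1 with 147, C1ra with 143 and C7 with 121 FPKM. Between 58.1 and 32.7 FPKM lay Clu, C4b, Cr1l, C2, C1qa, C1qb, Hc, C5ar1, C1qc and C1qbp in this order. Cfp had 24.6 and C6 had 19.9 FPKM. Cfd had 6.65, Cd55 6.55, Cd59a 3.62, C3ar1 3.53 and Vtn 1.23 FPKM. The lowest were Fcna at 0.587, Cfi at 0.462, Cd46 at 0.422, C5ar2 at 0.366, Masp1 at 0.219 and Vsig4 at 0.00223 FPKM. The ranges over the 8 lungs did not overlap between the neighbours C3 and Cfb, C7 and Clu, C6 and Cfd, Cd55 and Cd59a, C3ar1 and Vtn, and Masp1 and Vsig4. All other neighbours in this order overlapped.

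**Figure D1:**
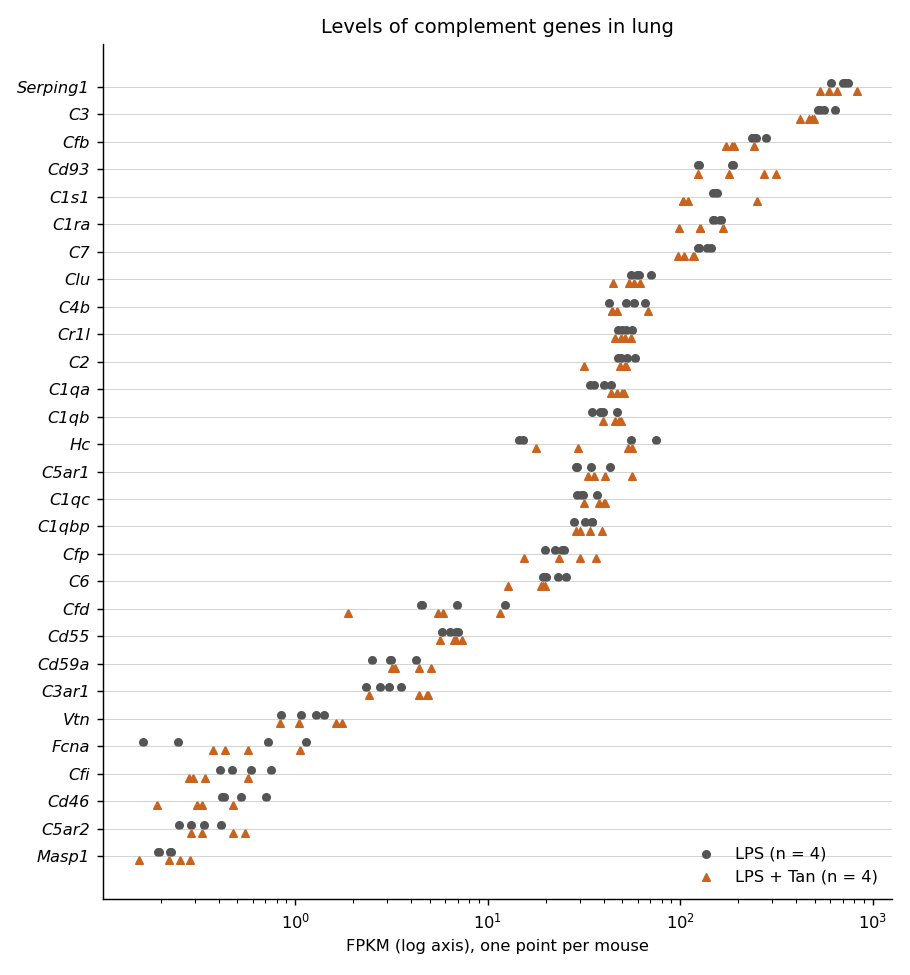
Level of each complement gene except Vsig4 in FPKM on a log axis, ordered by the mean of the 8 lungs. Each mouse has 1 point, with colours for the LPS and LPS + Tan groups. Serping1 (671 FPKM) and C3 (514 FPKM) lie at one end and Masp1 (0.219 FPKM) at the other. Vsig4 (0.00223 FPKM) is not drawn, and a value of 0 cannot be drawn on this axis.

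In LPS + Tan lungs, C3, Cfb, C6 and C7 of the effector arm and the regulator Cd46 were lower than in LPS lungs at an unadjusted p below 0.05 in the edgeR quasi-likelihood test. C1qa was the only member higher at that threshold. These are 5 of 29 (17.2%) lower, against 2.25% of all tested genes, and 1 of 29 (3.45%) higher, against 2.87% of all tested genes. With counts scaled to the sample total only, 3 members were lower, against 1.52% of all tested genes, and 2 were higher, against 4.16%. The 4 lungs of one group lay wholly below the 4 of the other for C3, Cfb and C7, against 1.15% of all tested genes, and 0 members lay wholly above, against 1.58%. No member passed the threshold of the study, p below 0.05 with a log2 fold change beyond 1 in either direction, which 0.649% of tested genes passed.

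At an adjusted p below 0.05 edgeR called 0 members and 0.0% of all tested genes. The lowest adjusted p among members was 0.919, for Cfb, and among all genes 0.497. DESeq2 called 35 genes and no complement gene, with a lowest adjusted p of 0.111, again for Cfb. At an unadjusted p below 0.05 DESeq2 had 5 members lower and 2 higher, against 2.08% and 2.33% of its 24558 genes. The likelihood ratio test of edgeR called 23 genes and limma-voom 0, and neither called a member. None of the differences below passed a correction for the number of genes tested in edgeR. An exact two-sided permutation test of mean log2 CPM over the 70 arrangements of the lungs, added after the data were seen, cannot go below 0.0286. At this group size it falls below 0.05 only where the groups do not overlap, as for C3, Cfb and C7, so it is no separate check on that count.

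**Figure D2:**
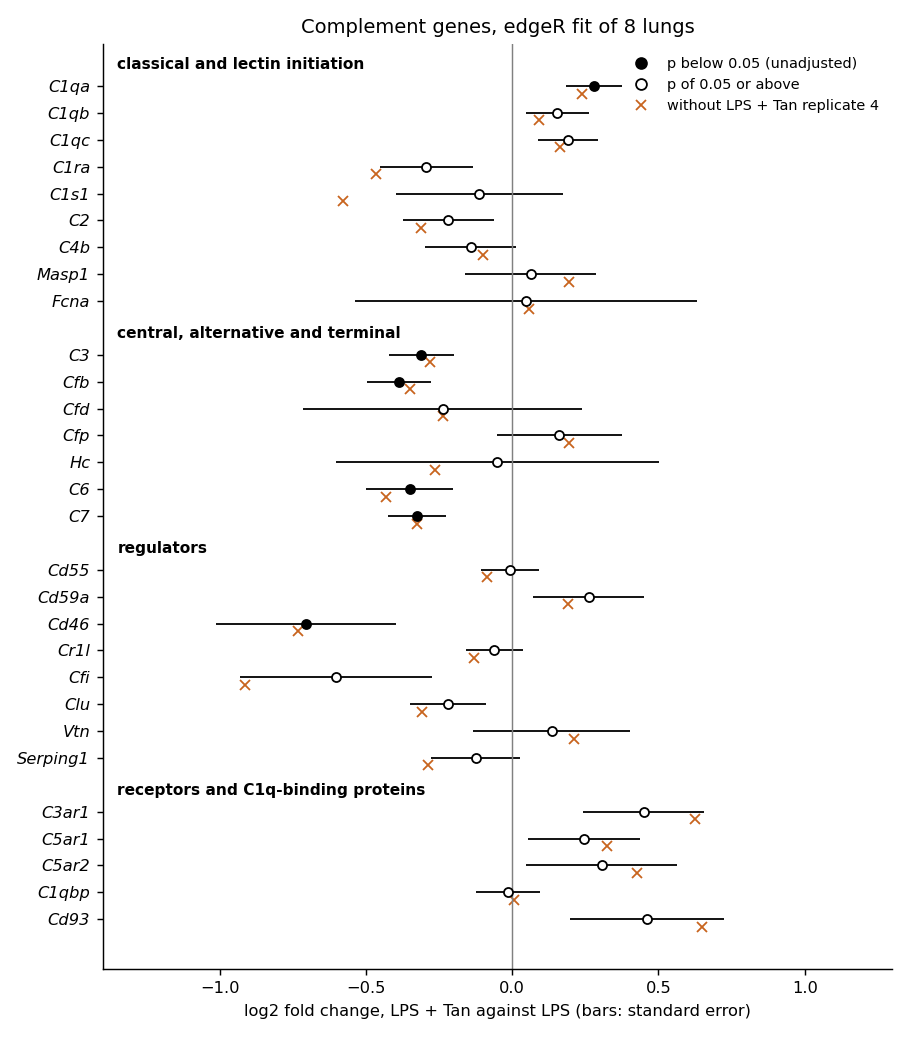
Log2 fold change of LPS + Tan against LPS for the 29 tested complement genes, with bars for the standard error of the edgeR fit of 8 lungs, grouped by role, filled where the unadjusted p was below 0.05 and open otherwise, and crosses for the fit without LPS + Tan replicate 4. Of the 7 central, alternative and terminal genes 6 lie below 0, with Hc and Cfd changing sign in some alternative analyses, and the 5 tested receptor genes have a median of 0.31.

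The central, alternative and terminal group held 7 genes, and 4 of them (57.1%) were lower at p below 0.05, with 0 higher. Of all tested genes 2.25% were lower and 2.87% higher. The median log2 fold change of the group was -0.31, beside -0.05 for all 29 members and 0.007 for all tested genes. C3 is the hub of the cascade. Its level was 2961, 3295, 2899 and 2720 CPM in the LPS lungs and 2455, 2578, 2292 and 2249 CPM in the LPS + Tan lungs. Every LPS + Tan lung lay below every LPS lung. The means were 2969 ± 240 and 2394 ± 152 CPM (SD, n = 4 each), a ratio of 0.806. The log2 fold change was -0.31 (SE 0.11), with an edgeR p of 0.0186, an adjusted p of 0.924 and an exact permutation p of 0.0286. Without LPS replicate 2, the highest lung, the change was -0.26 and p was 0.0585.

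Cfb encodes factor B, the protease subunit of the alternative C3 convertase. It measured 674, 682, 682 and 780 CPM in LPS and 498, 528, 633 and 495 CPM in LPS + Tan. The groups did not overlap, although in CPM without the TMM factor they did. LPS + Tan replicate 3 lay closest to the LPS lungs. The means were 705 ± 50.6 and 539 ± 64.8 CPM, and the log2 fold change was -0.39 (SE 0.11). Its edgeR p was 0.0051, its adjusted p 0.919 and its exact permutation p 0.0286. The edgeR p stayed below 0.05 with any 1 lung left out, between 0.00127 and 0.0187. Cfb lies at chr17:34856374-34862514 on GRCm38, next to C2, its classical counterpart, at chr17:34862602-34882100.

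C7 joins the growing membrane attack complex and lets it anchor in the membrane. Its level was 567, 496, 525 and 584 CPM in LPS and 381, 471, 446 and 435 CPM in LPS + Tan. Again all LPS + Tan lungs were below all LPS lungs. The means were 543 ± 39.7 and 433 ± 38.1 CPM, a ratio of 0.798, and the log2 fold change was -0.33 (SE 0.10). The edgeR p was 0.00825, the adjusted p 0.924 and the exact permutation p 0.0286. C6, which precedes C7 in the complex, measured 83.0, 89.8, 74.5 and 68.9 CPM in LPS and 44.0, 66.8, 64.9 and 72.1 CPM in LPS + Tan. Its groups overlapped at LPS + Tan replicate 4. The means were 79.0 ± 9.21 and 62.0 ± 12.4 CPM, with a log2 fold change of -0.35 (SE 0.15). The edgeR p of C6 was 0.0408, the adjusted p 0.924 and the exact permutation p 0.0571. The edgeR p rose above 0.05 without LPS replicate 1 (0.0855), LPS replicate 2 (0.112), LPS + Tan replicate 1 (0.0715) or LPS + Tan replicate 3 (0.0581). Without LPS + Tan replicate 1, the lowest lung, its change was -0.22. C6 (chr15:4727067-4804045) and C7 (chr15:4987750-5063773) lie on the same chromosome.

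**Figure D3:**
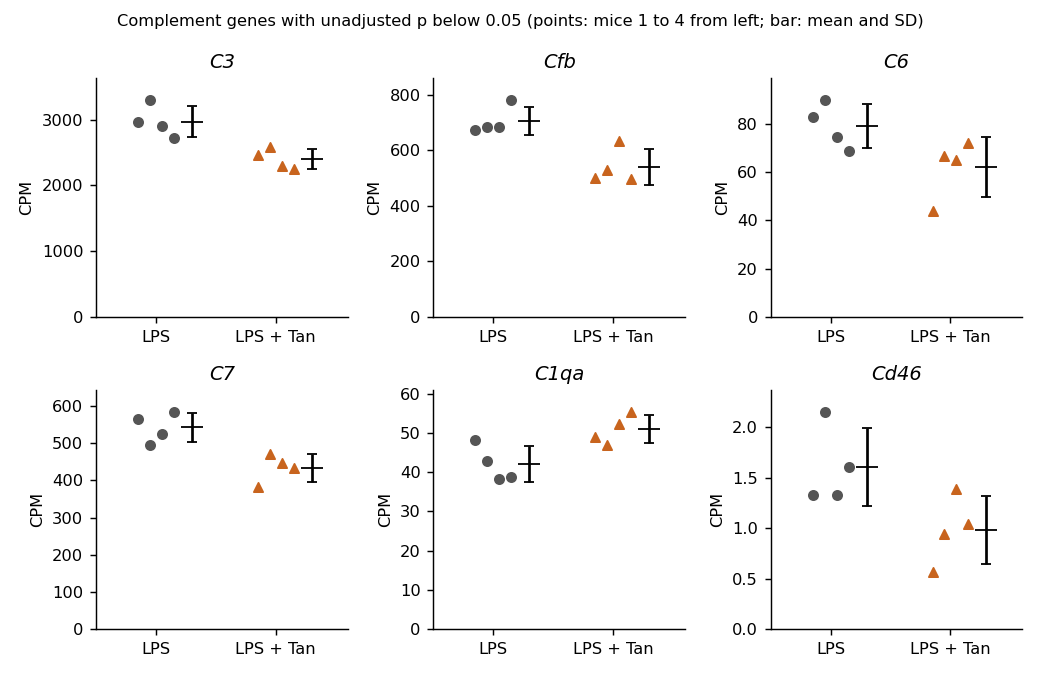
CPM of the 6 complement genes with an unadjusted p below 0.05, with points for mice 1 to 4 from left to right in each group and a bar for the mean and SD, and each axis starting at 0. The groups are apart for C3, Cfb and C7 and overlap for C6, Cd46 and C1qa.

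Hc, Cfd and Cfp completed this group and none passed the test. Hc, which encodes C5, the source of the anaphylatoxin C5a, varied from 81.6 to 423 CPM in LPS and from 96.6 to 312 CPM in LPS + Tan. Its highest lung had 5.19 times the level of its lowest, and the log2 fold change was -0.05 (SE 0.55), a sign that changed with the method. Cfd encodes factor D, the protease that cleaves factor B and is known as a product of fat cells. It spanned 4.25 to 11.5 CPM in LPS and 1.73 to 10.2 CPM in LPS + Tan, with a log2 fold change of -0.24 (SE 0.48). Cfp encodes properdin, which stabilises the alternative convertase. It measured 32.5 to 42.7 and 25.2 to 58.0 CPM, with a change of 0.16 (SE 0.21). The spread between lungs of a group was 1.04 for Hc and 0.80 for Cfd as an SD of log2 CPM, beside a median of 0.25 for the members and 0.20 for all tested genes. It was 0.10 for C3 and 0.12 for C7.

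The classical and lectin group held 9 genes, with a median log2 fold change of 0.05. At p below 0.05, 1 (11.1%) was higher and 0 were lower, against 2.87% and 2.25% of all tested genes. C1qa, C1qb and C1qc encode the 3 chains of C1q and lie side by side on chromosome 4, C1qa at chr4:136895916-136898844. C1qa measured 48.2, 42.9, 38.3 and 38.7 CPM in LPS and 49.1, 47.1, 52.4 and 55.3 CPM in LPS + Tan. The groups overlapped only at LPS replicate 1 and LPS + Tan replicate 2. The means were 42.0 ± 4.63 and 51.0 ± 3.65 CPM, and the log2 fold change was 0.28 (SE 0.10). The edgeR p was 0.0155 with an adjusted p of 0.924, while the exact permutation p was 0.0571. The edgeR p remained below 0.05 with any 1 lung left out, the highest being 0.0492 without LPS replicate 4.

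The other C1q chains lay on the same side with smaller values. C1qb measured 40.2 to 52.4 CPM in LPS and 43.5 to 56.0 CPM in LPS + Tan, with a log2 fold change of 0.15 (SE 0.11). C1qc measured 34.0 to 41.9 and 35.2 to 44.2 CPM, with a log2 fold change of 0.19 (SE 0.10). Neither passed the test, with edgeR p of 0.184 and 0.0942 and exact permutation p of 0.257 and 0.0571. In edgeR both passed p below 0.05 when LPS replicate 1 was left out, as did C1qc without LPS + Tan replicate 2. C1qb was at 0.091 without LPS + Tan replicate 4. C1q is made mainly by macrophages. Of the 10 macrophage or monocyte markers 0 passed p below 0.05 in either direction, and their summed level was 2098 to 3099 CPM in LPS and 2473 to 2993 CPM in LPS + Tan. The 6 alveolar macrophage markers also had 0 calls.

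C1ra and C1s1 encode the C1r and C1s proteases and are neighbours on chromosome 6, at chr6:124512621-124523440 and chr6:124530344-124542392. C1s1 had the highest mean FPKM of this group over the 8 lungs, although C1ra ranked above it in the LPS lungs. It measured 467, 476, 487 and 474 CPM in LPS and 311, 340, 305 and 805 CPM in LPS + Tan. The LPS lungs lay close together, 3 LPS + Tan lungs lay below them all, and LPS + Tan replicate 4 lay above them all. Over all 8 lungs the log2 fold change was -0.11 (SE 0.29), with an edgeR p of 0.704 and an exact permutation p of 0.657. C1ra measured 416, 445, 465 and 418 CPM in LPS and 264, 350, 332 and 477 CPM in LPS + Tan, with a log2 fold change of -0.29 (SE 0.16), an edgeR p of 0.0929 and an exact permutation p of 0.143. Again replicate 4 was the 1 LPS + Tan lung above the LPS lungs. Both genes have near-identical copies, C1rb and C1s2, between which reads could be split, so their values are uncertain.

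C2 and C4b, which form the classical convertase, gave changes of -0.22 (SE 0.16) and -0.14 (SE 0.15) in edgeR. Neither passed the test. With 1 lung left out, C2 ranged from -0.31 to -0.072 and C4b from -0.29 to -0.058, C2 being weakest without LPS + Tan replicate 1 and C4b without LPS replicate 2. C2 spanned 128 to 155 CPM in LPS and 80.8 to 142 CPM in LPS + Tan, and C4b 244 to 357 and 235 to 354 CPM. The near-identical C4a had no entry in the deposited tables, and how reads shared with C4b were counted is not known. Masp1, a protease of the lectin pathway, and Fcna, ficolin A, were near the lower end, at 1.17 to 1.99 and 0.228 to 1.63 CPM over the 8 lungs. Their changes were 0.06 (SE 0.23) and 0.05 (SE 0.59), and neither passed the test.

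The 8 regulators had a median log2 fold change of -0.09. At p below 0.05, 1 (12.5%) was lower and 0 were higher, against 2.25% and 2.87% of all tested genes. Cd46, which encodes a membrane cofactor for the cleavage of C3b and in the mouse is known mainly from testis, measured 1.33, 2.15, 1.33 and 1.61 CPM in LPS. It measured 0.566, 0.941, 1.39 and 1.04 CPM in LPS + Tan. LPS + Tan replicate 3 lay within the LPS range. The means were 1.61 ± 0.387 and 0.983 ± 0.337 CPM, a ratio of 0.613, and the log2 fold change was -0.71 (SE 0.31). The edgeR p was 0.0442, the adjusted p 0.924 and the exact permutation p 0.0857. The edgeR p also rose above 0.05 without LPS replicate 2 (0.134), LPS replicate 4 (0.0739), LPS + Tan replicate 1 (0.104), LPS + Tan replicate 2 (0.0791) or LPS + Tan replicate 4 (0.0655). The annotated start of Cd46 overlaps the end of Cr1l, and reads from the overlap could be counted for either gene.

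Serping1, the most abundant complement gene, blocks C1r, C1s and kallikrein. It measured 1328, 1266, 1164 and 1380 CPM in LPS and 940, 1086, 1130 and 1553 CPM in LPS + Tan. As with C1s1, 3 LPS + Tan lungs lay below the LPS lungs and replicate 4 above them. The log2 fold change over all lungs was -0.13 (SE 0.15), with an edgeR p of 0.43 and an exact permutation p of 0.4. Cfi, the protease that inactivates C3b, was at 0.888 to 1.54 CPM in LPS and 0.559 to 1.22 CPM in LPS + Tan, with a change of -0.60 (SE 0.33). Clu, clusterin, which binds the terminal complex, spanned 124 to 166 and 97.6 to 143 CPM, with a change of -0.22 (SE 0.13). The edgeR p was 0.096 for Cfi and 0.125 for Clu, and the exact permutation p 0.0857 and 0.2.

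The membrane regulators Cd55 and Cr1l, which speed the decay of convertases or help to cleave C3b, varied little. Cr1l spanned 83.8 to 110 CPM over the 8 lungs, the highest 1.31 times the lowest, with a change of -0.06 (SE 0.10). Cd55 spanned 68.9 to 92.1 CPM, with a change of -0.01 (SE 0.10). Cd59a, which blocks the pore, measured 8.98 to 14.6 CPM in LPS and 10.7 to 16.7 CPM in LPS + Tan, with a change of 0.26 (SE 0.19) that ranged from 0.14 to 0.41 with 1 lung left out, lowest without LPS + Tan replicate 3 and highest without LPS replicate 4. Vtn, vitronectin, gave 0.14 (SE 0.27). Cd55 and Cd59a have close copies, Cd55b and Cd59b, and are uncertain to that extent.

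Of the 5 tested receptor and C1q-binding genes, 0 passed p below 0.05 in either direction, and their median log2 fold change was 0.31. Cd93, a transmembrane protein of endothelium and myeloid cells once held to be a C1q receptor, was the most abundant. It measured 1251, 818, 870 and 1254 CPM in LPS and 2031, 1181, 1715 and 848 CPM in LPS + Tan. Replicates 1 and 3 of LPS + Tan lay above all LPS lungs, and replicate 4 lay among the lower ones. The log2 fold change was 0.46 (SE 0.26), with an edgeR p of 0.11 and an exact permutation p of 0.343. C3ar1, the receptor of C3a, lay between 10.1 and 15.1 CPM in LPS and measured 20.2, 20.9, 18.0 and 10.7 CPM in LPS + Tan. Here 3 LPS + Tan lungs lay above all LPS lungs and replicate 4 near the lowest. Its log2 fold change was 0.45 (SE 0.21), with an edgeR p of 0.0563, an adjusted p of 0.924 and an exact permutation p of 0.143. Its p was below 0.05 in 8 of 20 alternative analyses, DESeq2 among them.

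C5ar1, the main receptor of C5a, spanned 74.5 to 116 CPM in LPS and 86.9 to 144 CPM in LPS + Tan, with a log2 fold change of 0.25 (SE 0.19). It was 0.053 without LPS + Tan replicate 2, its highest lung, and 0.40 without LPS replicate 3. C5ar2, the second C5a receptor, spanned 1.29 to 2.15 and 1.53 to 2.72 CPM, with a change of 0.31 (SE 0.26), which was 0.15 without LPS + Tan replicate 3 and 0.44 without LPS replicate 4. C1qbp, a mitochondrial protein that binds C1q, gave -0.01 (SE 0.11) and overlaps the gene Rpain. Markers of the cells known to carry these receptors were measured beside them. The 7 neutrophil markers summed to 4029 to 5324 CPM in LPS and to 3542 to 5260 CPM in LPS + Tan, with 0 calls. Of the 6 endothelial markers 2 were higher at p below 0.05, against 2.87% of all tested genes. These were Kdr, by 0.37, and Tek, by 0.51 on the log2 scale. The other 4 did not pass, with log2 fold changes of 0.19 for Pecam1, 0.26 for Emcn, -0.15 for Cdh5 and -0.03 for Cldn5. The edgeR p of Kdr and Tek were 0.0364 and 0.0433, and their exact permutation p was 0.114 for each. Kdr missed p below 0.05 in 6 and Tek in 10 of 20 alternative analyses. The part of endothelium in the Cd93 values was not tested.

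For C1s1, C1ra and Serping1, LPS + Tan replicate 4 lay above all LPS lungs and the rest of its group below them. It was also the lowest LPS + Tan lung for C3ar1 and Cd93, and for C3 and Cfb, where it lay furthest from the LPS lungs. Its median correlation with the other samples was 0.987, within the range of the rest. Among the cell type markers it was the highest of the 8 lungs for some, such as Ager (1057 CPM) and Sftpc (7132 CPM). It was the lowest for others, such as Cx3cr1 (0.987 CPM) and Abca3 (292 CPM), and lay within the range of the other lungs for the rest. With this lung left out, 9 of 29 members were lower at p below 0.05, against 4.56% of all tested genes, and 3 were higher, against 4.78%. C3, Cfb, C6 and C7 were among the lower, joined by C1ra, C1s1, Cfi, Clu and Serping1. The higher were C1qa, C3ar1 and Cd93, and Cd46 was no longer called. Without it the change of C1s1 was -0.58 (SE 0.08, adjusted p = 0.0782 in edgeR) and that of C1ra was -0.47 (adjusted p = 0.244). Serping1 was at -0.29, Clu at -0.31, Cfi at -0.91, C3ar1 at 0.62 and Cd93 at 0.65 on the log2 scale. Leaving out another lung weakened several of these values. Without LPS + Tan replicate 1, C1ra was at -0.18, Serping1 at -0.034, Clu at -0.13 and Cd93 at 0.25. This lung was singled out after its values were seen, so these figures describe how far it weighs on the comparison.

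Genes that work as partners were compared over the 8 lungs as log2 CPM, in 9 pairs. The pair of Fcna and Vsig4 is not described because Vsig4 had 1 count, but the adjusted p count all 9. The C1q chains moved together. Pearson's r was 0.861 for C1qa and C1qb, 0.865 for C1qa and C1qc and 0.928 for C1qb and C1qc, with exact permutation p of 0.00751, 0.00283 and 0.00424. Spearman's rho was 0.905, 0.929 and 0.881, with permutation p of 0.00456, 0.00223 and 0.00724. The adjusted permutation p over the pairs was 0.0166, 0.0127 and 0.0127 for r and 0.0103, 0.00669 and 0.013 for rho. After centring each group on its mean, r was 0.876, 0.796 and 0.909. Without the 2 lungs farthest from the median of the first gene it was 0.76, 0.79 and 0.959. A group of 4 lungs was too small for a value of its own.

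C1ra and C1s1 gave an r of 0.842 (permutation p = 0.00925, adjusted p = 0.0166) and a rho of 0.976 (permutation p = 0.000397, adjusted p = 0.00357). The value was 0.871 after centring and 0.828 without LPS + Tan replicates 1 and 3, the farthest from the median of C1ra. Cfd and the mean of the adipocyte markers gave an r of 0.911 (permutation p = 0.000719, adjusted p = 0.00647) and a rho of 0.929 (permutation p = 0.00223, adjusted p = 0.00669). It was 0.931 after centring and 0.924 without the 2 farthest lungs. The adipocyte markers were low, with a sum of 4.34 to 9.77 CPM in LPS and 3.53 to 8.77 CPM in LPS + Tan.

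C3 and Cfb, which join in the alternative convertase, gave an r of 0.633 (permutation p = 0.0983, adjusted p = 0.147) and a rho of 0.714 (permutation p = 0.0576, adjusted p = 0.0864). Within the groups the relation did not hold, with an r of -0.41 after centring, and r was 0.505 without the 2 farthest lungs. C3ar1 and C5ar1 gave 0.584 (permutation p = 0.129, adjusted p = 0.166) and a rho of 0.476 (permutation p = 0.243, adjusted p = 0.312), with 0.48 after centring and 0.107 without the 2 farthest lungs. The mean of the C1q chains and the mean of the macrophage or monocyte markers gave 0.3 (permutation p = 0.457, adjusted p = 0.514) and a rho of 0.31 (permutation p = 0.462, adjusted p = 0.52), with 0.141 after centring and 0.668 without the 2 farthest lungs.

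**Figure D4:**
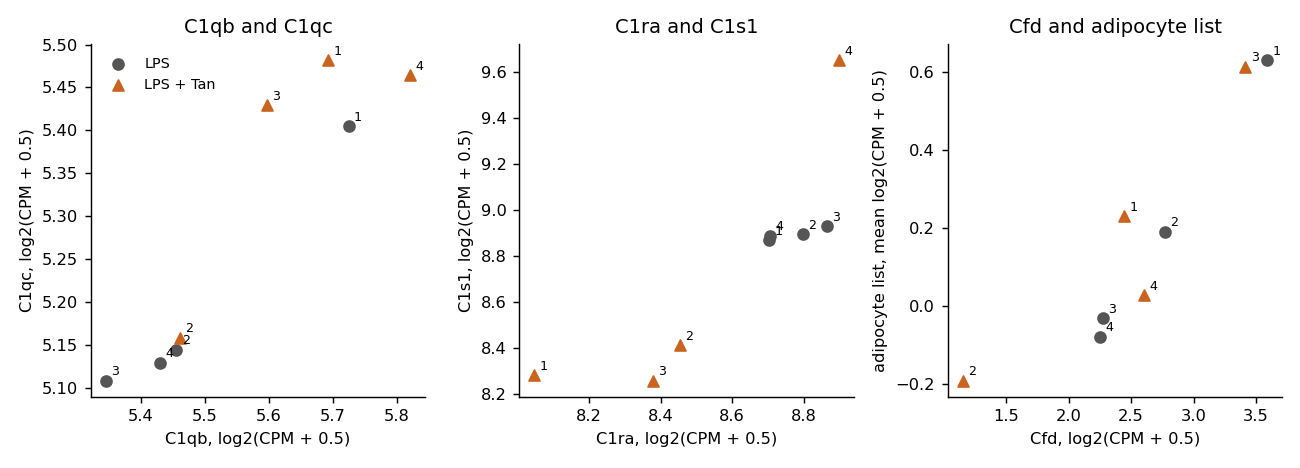
Log2(CPM + 0.5) of paired genes in the 8 lungs, with 1 point per mouse and a colour for each group. C1qb and C1qc (r = 0.928), C1ra and C1s1 (r = 0.842) and Cfd with the mean of the adipocyte markers (r = 0.911) line up over both groups.

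A further list of 32 complement genes outside the set was read for context. Of these, 31 were in the tables and 18 were tested, with a median log2 fold change of -0.10. At p below 0.05, 2 (11.1%) were lower and 0 were higher, against 2.25% and 2.87% of all tested genes. Ptx3, a soluble pattern receptor that binds C1q, measured 21.8, 44.9, 126 and 30.2 CPM in LPS and 10.5, 31.3, 23.5 and 6.91 CPM in LPS + Tan. The log2 fold change was -1.63 (SE 0.60), with an edgeR p of 0.0218, an adjusted p of 0.924 and an exact permutation p of 0.143. Without LPS replicate 3, its highest lung, it was -0.84 and the edgeR p was 0.104. C1rl, a C1r-like protease, was at 17.6 to 21.0 and 15.1 to 17.8 CPM, with a log2 fold change of -0.24 (SE 0.10), an edgeR p of 0.0467 and an exact permutation p of 0.0571. C1rl missed p below 0.05 in 11 of 20 alternative analyses. Terminal components beyond C7 were nearly unread, with 2 counts of C8a, 1 of C8b, 1 of C9 and 31 of C8g over all 8 lungs. The C8 and C9 values were picked out after they were seen.

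Since the liver makes most circulating complement protein, hepatocyte markers were read beside the effector genes. Of 6 markers 2 were tested and both were lower at p below 0.05, against 2.25% of all tested genes. Serpina1a had a log2 fold change of -1.33 and Tat of -1.25. Their edgeR p were 0.0127 and 0.044, and their exact permutation p 0.143 and 0.0571. Of 19 alternative analyses, Serpina1a missed p below 0.05 in 1 and Tat in 8. The list summed to 2.10 to 4.60 CPM in LPS and to 1.16 to 2.64 CPM in LPS + Tan. The other 4 had too few counts for a test and were not lower in their sums over 4 lungs. From LPS to LPS + Tan these sums were 45 and 49 for Alb, 11 and 12 for Apoa1, 1 and 23 for Apoa2, and 0 and 7 for Ttr. Fibroblast markers summed to 2672 to 3227 and 2433 to 2929 CPM, with 0 of 6 called, and 0 of 6 alveolar type 2, 0 of 5 alveolar type 1 and 0 of 4 mesothelial markers were called. The part of these cells in the complement values was not tested.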

How the data were processed

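RNA-seq of lung from 4 LPS and 4 LPS + Tan mice was used, grouped by the sample labels. The authors deposited raw read counts per gene and, for the same genes, FPKM values, made from these counts by gene length and sample total. The submitters' processing notes name GRCm38 (mm10). No source used here gives the aligner, counter or annotation. The methods and the labels name different extraction and library kits. Every column was matched to a sample, with 0 left over.

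The main test was the quasi-likelihood test of edgeR 4.0.16 (R 4.3.3) after filterByExpr and TMM scaling, with no covariate. The standard error was the log2 fold change divided by the square root of F. P was adjusted over all tested genes by the Benjamini-Hochberg method. Correlations of log2(CPM + 0.5) were tested by exact two-sided permutation over all pairings. Depth ranged from 38895654 to 39931970 counts per sample and covers counting error only. Alternatives were DESeq2 1.42.0, limma 3.58.1 (voom, and log2 of FPKM plus 1 or 0.1), other scalings and filters, the likelihood ratio test, a block for the replicate number, and leaving out each sample. An exact permutation test of mean log2(CPM + 0.5) was added after seeing the data. On simulated data for this comparison, with 200 of 15706 genes changed 2-fold, 92% had a p below 0.05, and 97.5% when changed 3-fold. The members had log2 fold changes of -0.71 to 0.46, which is less than 2-fold. Changes of that size were not simulated.

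The members and lists were chosen with earlier results of these data known. Values in every sample were due for members with p below 0.05, for those whose groups did not overlap and for the member with the highest FPKM of each role group. C1ra and C3ar1 were added after their values were seen. The promoter windows were also chosen with the values known. Replicate numbers were not used to pair samples, since no label says that they mark a shared litter or day. The authors' own comparisons were not used.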

Additional observations from a re-analysis of the deposited data

Results flagged for a closer look

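A lung far from the other 3 of its group was found in 4 of 58 groups of 4 values, where the gap to its nearest neighbour divided by the range of the 4 values passed Dixon's critical value, on the log2 CPM scale. Chance alone gives about 2.9 such groups of 58, or 1 in 20. For C1s1, LPS + Tan replicate 4 was highest at 805 CPM, with the next at 340 and the lowest at 305, a gap of 0.889 of the range. For Cfb, LPS replicate 4 was highest at 780 CPM, with the next at 682 and the lowest at 674, a gap of 0.916 of the range. For C1qc, LPS replicate 1 was highest at 41.9 CPM, with the next at 34.9 (0.878 of the range), and LPS + Tan replicate 2 was lowest at 35.2, with the next at 42.6 (0.835 of the range).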

How the results depend on the processing

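Of 572 values of members under the alternatives, 506 kept their direction and their side of the 0.05 threshold, 18 passed it newly, 16 lost it and 32 changed sign. C1qa, Cfb and C7 stayed below an unadjusted p of 0.05 in all 20 alternatives, C3 in all but 1, while C6 lost it in 8 of 20 and Cd46 in 7 of 19. Adjusted p over the alternatives ranged from 0.111 to 1 for Cfb, 0.157 to 1 for C3, 0.188 to 1 for C7, 0.338 to 1 for C1qa, 0.447 to 1 for C6 and 0.555 to 1 for Cd46. The number of members lower was 3 with scaling to the sample total only and 2 to 9 with a lung left out (fewest without LPS replicate 2, most without LPS + Tan replicate 4). The number higher was 2 with DESeq2, upper-quartile scaling, scaling to the total, no filter, the likelihood ratio test or the replicate block. It was 1 to 3 with a lung left out. Of all tested genes, 2.25% were lower in the main fit, 1.52% with the total only and 4.56% without LPS + Tan replicate 4. The percentages higher were 2.87%, 4.16% and 4.78% in that order. Percentages for the other lungs left out are not given here. The exact permutation test, chosen after seeing the data, gave 3 lower and 0 higher, which with 4 lungs a group repeats the count of members whose groups do not overlap. Sign changes fell on members with small or unstable values. With a lung left out C1s1 ranged from -0.58 to 0.027, Masp1 from -0.045 to 0.19, Fcna from -0.33 to 0.62, Cfd from -0.70 to 0.17, Cfp from -0.029 to 0.34, Hc from -0.33 to 0.45, Cd55 from -0.086 to 0.055, Vtn from -0.015 to 0.30 and C1qbp from -0.099 to 0.041. Hc was 0.15 with voom and as a difference of mean log2 CPM in the permutation test, 0.18 and 0.19 on log2(FPKM + 1) and log2(FPKM + 0.1), and 0.20 with the replicate block. Cd55 was 0.0014 with upper-quartile scaling, 0.030 with the total only, and 0.024 and 0.027 on the FPKM scales. C1qbp was 0.030 with the total only, and 0.025 and 0.026 on the FPKM scales. The C3 and Cfb correlation was -0.41 after centring by group. The replicate block gave 4 lower and 2 higher members, since Cd46 lost and C3ar1 gained an edgeR p below 0.05. Deviations of same-numbered samples correlated between -0.165 and 0.164. No reference for these values was computed, so they cannot tell whether such samples shared a litter or day. The cause of the changes between settings was not tested. Vsig4, with 1 count, was removed by the expression filter and was tested only without that filter and in DESeq2, with no call.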
